A study of Homo sapiens with 12 samples.

Results

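The 10 genes described here are ATF4, PPP1R15A, TRIB3, DDIT4, ASNS, SLC3A2, SLC7A5, SLC7A11, PHGDH and PSAT1. They were taken by name as regulators, amino acid transporters and enzymes of the ATF4 stress response and of serine synthesis. All 10 of the 10 were found in the gene table, and all 10 have an entry in at least 1 of the 3 tables of the series. For comparison, 5094 of 20052 protein-coding genes have such an entry. All 12 samples were of HEK293T, a cell line derived from human embryonic kidney into which the large T antigen of SV40 was introduced. For m6A-seq, in which RNA fragments with the modified base N6-methyladenosine (m6A) are pulled down with an antibody, cells were given TRMT10A siRNA or control siRNA, with 2 pulldown and 2 input samples for each siRNA. For CLIP-seq, in which RNA is crosslinked to a protein with ultraviolet light and recovered with it, 3 samples came from cells overexpressing TRMT10A and 1 from cells overexpressing FTO, and both proteins were recovered with anti-Flag beads. TRMT10A is a methyltransferase that makes 1-methylguanosine in tRNAs, and FTO is a demethylase of m6A.

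Every value below comes from a list of sites with no values per library. The spread between samples and the depth per sample are therefore unknown, and no gene has a measured RNA level. Whether a site was listed because of strong binding or because of an abundant transcript cannot be told apart, and markers of the cell type could not be checked. CLIP describes cells with added protein, without a listed control pulldown. Coordinates are hg38 as listed. Whether FTO cluster starts count from 0 or from 1 is not stated, and they are read here as counted from 1.

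ATF4 is the transcription factor of the integrated stress response. Stress kinases phosphorylate the initiation factor eIF2, which lowers general protein synthesis while the ATF4 mRNA is translated more, and ATF4 then switches on genes for amino acid uptake, for amino acid synthesis and for feedback on the response itself. Its targets include the enzymes that make serine from a glycolytic intermediate.

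The first sequences show the 5' ends of the genes where a listed m6A peak or FTO cluster held some of the first 50 bases of the transcript, and the third a promoter with a match to the element that ATF4 binds. They are RefSeq sequences of GRCh38.p14, from windows of 250 bases before to 50 bases after a transcript start, written 5' to 3' on the strand of the gene. For DDIT4 (chr10:72273939-72273968, plus strand, bases 16 to 45 of the transcript) capitals mark GGAC, the core of the sequence in which m6A is most often found. For ATF4 (chr22:39520582-39520611, plus strand, bases 21 to 50) capitals mark the 7 bases that belong to an FTO cluster beginning at base 44 (6 bases if its start counts from 0). For ASNS (chr7:97872443-97872502, minus strand, from base -94 to base -35 relative to one of its starts) capitals mark a match to TGATGNAA, a form of the element bound by C/EBP and ATF proteins.
DDIT4: ggaggtgcgagcgtGGACctgGGACgggtc
ATF4: acagatgtagttttctctgcgcgTGTGCGT
ASNS: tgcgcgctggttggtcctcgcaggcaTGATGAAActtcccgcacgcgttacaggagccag

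The window table held 15 windows for 9 of the genes. TGATGNAA was searched on both strands and occurred in windows of ASNS and SLC3A2, and in 3.62% of all 35116 windows. In SLC3A2 the match lay on the opposite strand, 37 bases after a start. GGAC was searched on the transcript strand within the 50 bases after the start and occurred in windows of DDIT4, ASNS and SLC3A2, and in 18.9% of all windows. A match is a run of letters and not a measured site. No TRMT10A site lay in any window of these genes.

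A positive differential m6A peak was listed for 3 of the 10 genes (PPP1R15A, DDIT4 and SLC3A2), against 5.72% of protein-coding genes, and a negative one for 1 (TRIB3), against 3.08%. Among protein-coding genes with an entry in any table these shares were 22.5% and 12.1%, so that 3 and 1 of 10 lie close to that background. TRMT10A sites were listed in 7 of the 10 genes, against 12.6% of protein-coding genes, and FTO clusters in 8, against 15.5%. Both were found in 6 (ATF4, DDIT4, ASNS, SLC3A2, SLC7A5 and PHGDH), against 6.96%. Since all 10 genes have an entry in some table, the nearer comparison is with protein-coding genes that have one, of which 49.6% had a TRMT10A site, 61.1% an FTO cluster and 27.4% both. The counts of 7, 8 and 6 of 10 exceed these shares by less than they exceed those of all genes, and no test was made. The genes were also chosen with earlier results of these data known, so the counts cannot show an excess. DDIT4 and SLC3A2 were in all 3 lists, and PPP1R15A was the 1 gene in neither CLIP list.

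For m6A, the question was which transcripts gained or lost signal between TRMT10A siRNA and control siRNA. The authors' deposited table lists 2023 peaks, 66.5% of them positive, and its largest adjusted p is 0.0501, so a gene without an entry may have an unchanged peak or no peak. Its headers do not say which siRNA is the numerator, so signs are given as listed.

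DDIT4 (also REDD1, an inhibitor of the growth kinase complex mTORC1) had a peak at chr10:72273919-72275624 that covered most of its 2.11 kb gene. In the authors' deposited table its log2 fold change was 0.36 (a fold of 1.28, adjusted p = 3.47e-05). The peak has 3 exon blocks of 142, 265 and 930 bases, starts 5 bases before the annotated gene start and ends 412 bases before the gene end. The printed DDIT4 sequence lies in its first block. Enrichment of pulldown over input was 7.69 in the authors' deposited table, higher than at 66.6% of the peaks, and 86.4% of positive peaks had a larger log2 fold change. DDIT4 thus combined an enrichment above the median with one of the smaller positive changes.

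SLC3A2, the heavy chain CD98 that brings several amino acid transporters to the cell surface, had a peak of 420 bases at its 3' end (chr11:62888464-62888883). Its log2 fold change was 0.49 (fold 1.40, adjusted p = 0.000151) and its enrichment 2.02, higher than at 17.1% of the peaks, in the authors' deposited table. The enrichment was thus among the lower ones listed. PPP1R15A, also GADD34, the stress-induced subunit that directs a phosphatase to eIF2, had a peak of 626 bases (chr19:48874216-48874841) that ended 1217 bases before the gene end. The authors' deposited table gave 0.45 (fold 1.36), with an adjusted p of 0.0407 that was close to the threshold: 94.3% of the listed peaks had a lower one.

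TRIB3, a pseudokinase that restrains ATF4 signalling, had the 1 negative peak, at chr20:396518-397232 near its 3' end. In the authors' deposited table its log2 fold change was -0.74 (adjusted p = 0.0012), equal to a 1.67-fold difference, with an enrichment of 5.90. It was the largest of the 4 changes in absolute size. Of the 677 negative peaks, 24.7% were further from 0. The 3 positive values, 0.36 to 0.49, were all below the median of positive peaks (0.70) in the authors' deposited table. The regulators thus had peaks of both signs, with PPP1R15A and DDIT4 positive and TRIB3 negative.

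**Figure D1:**
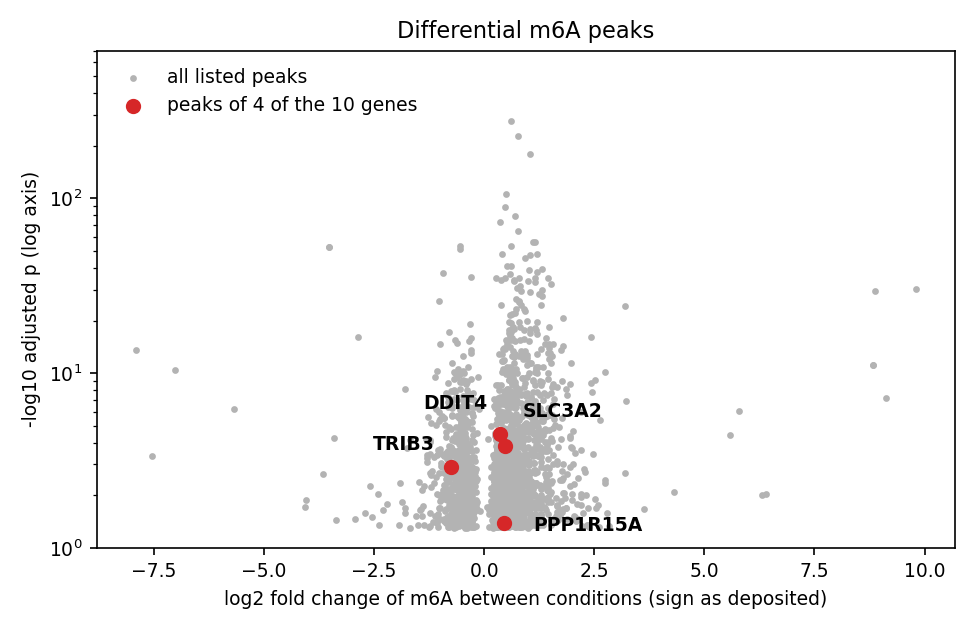
Each point is a differential m6A peak of the authors' deposited table, with the log2 fold change as listed on the x axis and -log10 of the adjusted p on the y axis (log axis). The red points of DDIT4 (0.36), PPP1R15A (0.45) and SLC3A2 (0.49) sit close to the inner edge of the positive peaks, TRIB3 (-0.74) lies among the negative peaks, and PPP1R15A is near the bottom edge set by the threshold.

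The other 6 genes (ATF4, ASNS, SLC7A5, SLC7A11, PHGDH and PSAT1) had no differential peak. They include the transcription factor itself and PHGDH and PSAT1, the enzymes of serine synthesis among the genes described. With a minimum log2 fold change of 0.5 in either direction, none of the 3 positive genes would remain, and TRIB3 would.

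TRMT10A CLIP asks which transcripts the enzyme touches. The 10 genes held 28 distinct sites of the 5650 listed. Peak height, like the conversion events of the FTO list, is the authors' own score and is used only to rank sites within its list. It ran from 16 to 45 in these genes with a median of 22, against a median of 20 over the list. Of the 28 sites, 16 were above the list median, against 45.5% of listed sites. Many of these 16 were in PHGDH, with heights of 22, 23, 23, 26, 31, 44, 45 and 45, while its sites of 17 and 20 were not above it. The share thus leans on PHGDH, whose sites belong to the same gene. The median and the share without PHGDH were not computed, so they show no excess across the genes.

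PHGDH, the enzyme of the first step of serine synthesis, had the most sites, 10, with a lowest height of 17, a median of 24.5 and a highest of 45. Of the 2526 bound protein-coding genes, 43 (1.70%) had as many, and the median gene had 1. The sites were spread along the transcript, 1 each in annotated exons 1, 2, 3, 5, 6, 7, 9, 10, 11 and 12 of 12. The highest 3 lay in exons 9, 10 and 11, with heights of 45 (chr1:119740451), 44 (chr1:119741854-119741855) and 45 (chr1:119743006-119743007). A height of 45 was reached by 5.10% of listed sites. PSAT1, which carries out the next step of the same pathway, had no TRMT10A site, so of these successive enzymes PHGDH alone was on the TRMT10A list.

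SLC7A5, the LAT1 transporter of large neutral amino acids, had 8 sites, a number reached by 3.60% of bound protein-coding genes. Their heights were 17 at the lowest, 20.5 at the median and 25 at the highest. Of these, 7 were in the 3' UTR (exon 10 of 10) between chr16:87830138 and chr16:87832235, and 1, with a height of 21, was in exon 1 (chr16:87869241-87869243). SLC7A5 thus had many sites with heights near the list median, most of them in the 3' UTR, while PHGDH had none annotated to its 3' UTR. The PHGDH site in exon 12, however, lay 7 bases from a cluster that the FTO list annotates to the 3' UTR. SLC3A2, the partner of SLC7A5, had 3 sites, with heights of 20 (chr11:62885517-62885518), 31 (chr11:62888523-62888524) and 17 (chr11:62888715). In the TRMT10A list these are annotated by a non-coding transcript of SLC3A2. In the FTO list, a cluster in coding sequence shared a base with the site of height 31. Another cluster in coding sequence lay 8 bases from the site of height 20. The site of height 17 lay 163 bases from its nearest cluster, so the FTO list does not give its region. SLC7A11, the cystine transporter xCT that also pairs with SLC3A2, had no TRMT10A site.

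ATF4 had 2 sites with heights of 31 (chr22:39521630) and 36 (chr22:39521887-39521889), the second reached or passed by 9.40% of listed sites. Among the 10 genes only PHGDH had a site higher than 36, and the ATF4 gene is 2.13 kb long. DDIT4 had 2 sites in exon 3 of 3, with heights of 19 (chr10:72274730-72274732) and 23 (chr10:72275035-72275036). ASNS, the enzyme that makes asparagine, had 2, with heights of 18 (chr7:97852360, exon 14 of 14) and 16 (chr7:97859251-97859256, exon 6). The TRMT10A table repeats the ASNS positions under another gene ID, and each was counted once. TRIB3 had 1 (chr20:396227-396230), at the lowest listed height of 16. Per kb of gene span, introns included, the short genes DDIT4 (0.948) and ATF4 (0.939) ranked ahead of PHGDH (0.310) and SLC7A5 (0.203). No site of these genes lay in an intron, so this order reflects gene length as well as the number of sites. Density along the spliced transcripts was not computed, and the order there may differ.

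**Figure D2:**
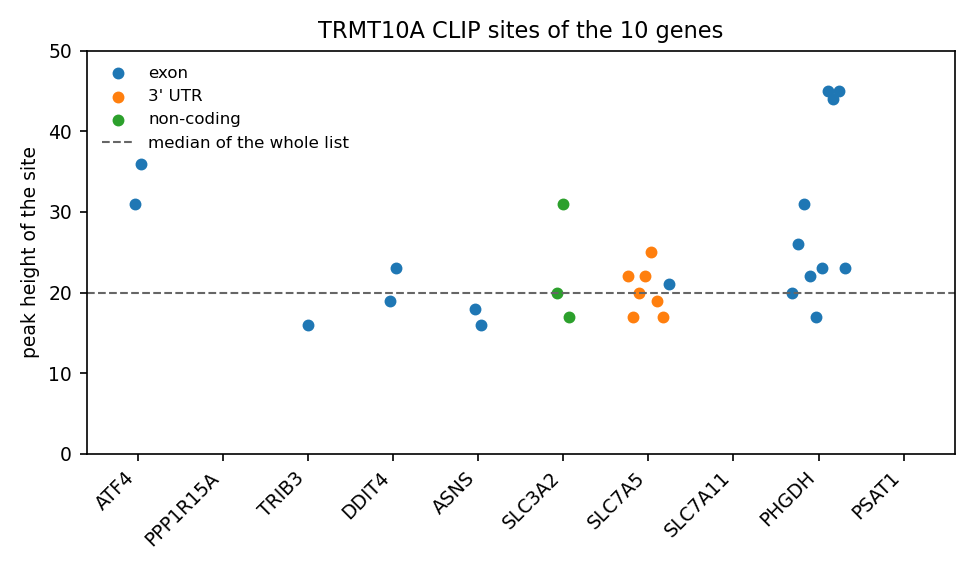
Each point is a TRMT10A CLIP site, placed by gene along the x axis and in genomic order within a gene, with its peak height (the authors' score) on the y axis and the annotated region as colour. The dashed line is the median of the whole list, 20. The 3 points at 44 and 45 belong to PHGDH, the 7 points in 3' UTRs all belong to SLC7A5, and PPP1R15A, SLC7A11 and PSAT1 have no point.

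By annotated region, 18 of the 28 TRMT10A sites were in exons outside UTRs (64.3%, 95% Wilson interval 45.8 to 79.3%), against 64.4% over protein-coding genes of the list. A further 7 were in 3' UTRs (25%, interval 12.7 to 43.4%), against 14.3%. Without SLC7A5 the shares were 85.0% and 0 of 20 (interval up to 16.1%), since all 7 sites in 3' UTRs are in SLC7A5. Wilson intervals cover counting error only, and sites of 1 gene share their transcript.

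FTO CLIP asks the same of the demethylase, from 1 library. The 10 genes held 41 distinct clusters with 156 conversion events in all, and the number per cluster ran from 2 to 19 with a median of 2. The median over protein-coding genes was also 2. In these genes 21 of the 41 clusters had just 2 events, against 50.7% in protein-coding genes, so many clusters rest on few events.

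SLC7A5 had the most clusters, 16, a number reached by 44 of the 3110 protein-coding genes with a cluster (1.41%). Its events ranged from 2 to 15 with a median of 3 and summed to 69. Clusters in the 3' UTR numbered 13 and in coding sequence 3. The strongest 2 were neighbours at the 3' end, with 15 events (chr16:87830104-87830136) and 13 events (chr16:87830139-87830182). SLC7A5 was therefore rich in listed sites of both proteins, and most of both were in its 3' UTR. SLC3A2 had 8 clusters, all in coding sequence, with 2 to 5 events and a median of 2. SLC7A11 had 1 cluster of 2 events in its 3' UTR (chr4:138165982-138166011).

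PHGDH had 5 clusters with 2, 2, 3, 5 and 19 events. The cluster of 19 (chr1:119743023-119743047, coding sequence) was the strongest of the 10 genes, at a level reached by 1.83% of clusters in protein-coding genes. PSAT1 had 4 clusters, all in its 3' UTR, the first with 6 events (chr9:78329261-78329295) and the others with 2. Both serine enzymes among the 10 genes were thus on the FTO list.

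ATF4 had 3 clusters, with 3 events in the 5' UTR (chr22:39520605-39520688) and 5 events each at chr22:39521483-39521525 and chr22:39521782-39521843 in coding sequence. The 5' UTR of ATF4 holds the upstream reading frames through which its translation is controlled, and its cluster was the 1 in a 5' UTR among the 41. Its first bases are the capitals of the ATF4 sequence above. DDIT4 had 3 clusters of 2 events each, 1 in coding sequence and 2 in the 3' UTR. ASNS had 1 of 3 events in coding sequence (chr7:97852343-97852393), and PPP1R15A and TRIB3 had none.

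**Figure D3:**
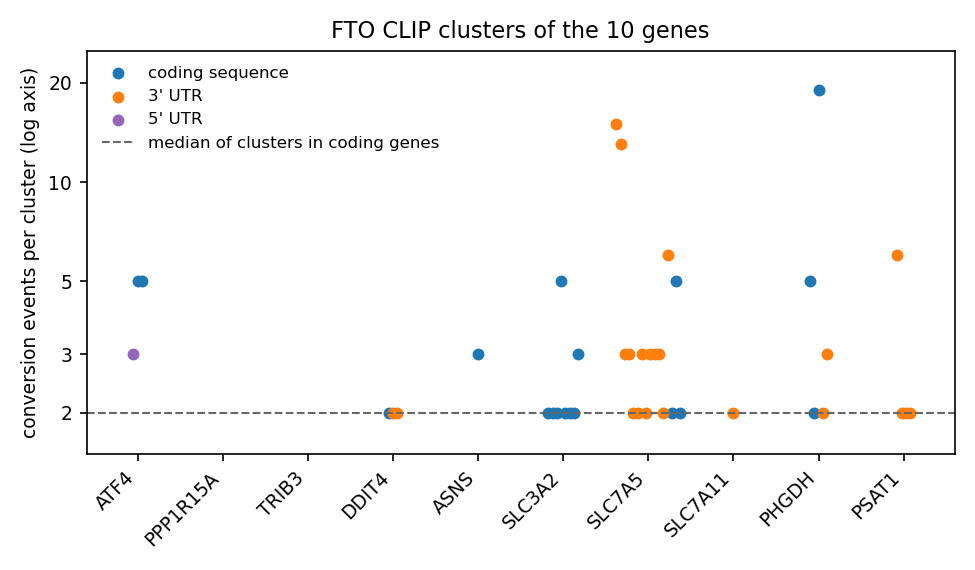
Each point is an FTO CLIP cluster, placed by gene along the x axis, with its conversion events on the y axis (log axis) and the annotated region as colour. The dashed line is the median of clusters in protein-coding genes, 2. The 3 clusters above 10 events belong to PHGDH (19) and SLC7A5 (15 and 13), and 21 of the 41 lie on the dashed line.

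Of the 41 clusters, 22 were in 3' UTRs (53.7%, 95% Wilson interval 38.7 to 67.9%), against 28.3% over protein-coding genes, and 18 in coding sequence (43.9%, interval 29.9 to 59.0%), against 59.0%. Without SLC7A5 the shares were 36.0% and 60.0%. None of the 41 clusters and none of the 28 sites was in an intron, against 8.82% and 12.3% over protein-coding genes.

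Positions of both proteins were then compared within each gene on the same strand. Of the 41 FTO clusters, 5 (12.2%) overlapped a TRMT10A site by 1 base or more, against 8.02% in protein-coding genes. That background covers all 3110 protein-coding genes with a cluster, of which 1395 also had a TRMT10A site. Of the 41 clusters, 36 lay in genes with both. The backgrounds thus differ, and the shares cannot show an excess of overlap. SLC7A5 held 3 of the 5 overlapping clusters, with 4, 7 and 3 shared bases. SLC3A2 and ASNS held 1 each with a single shared base, and that of SLC3A2 is lost if the FTO starts are read as counted from 0.

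The comparison was widened to sites that came close. In the 6 genes with both, 12 of 27 TRMT10A sites (44.4%) lay within 20 bases of an FTO cluster, the distance being the difference between the facing ends, against 28.1% in protein-coding genes with both. These counts include shared bases, and without them 7 of 27 sites (25.9%) came that close, against 11.2%. Sites within 20 bases numbered 4 of 8 in SLC7A5, 4 of 10 in PHGDH, 2 of 3 in SLC3A2, 1 of 2 in DDIT4, 1 of 2 in ASNS and 0 of 2 in ATF4. The median distance was 44 bases, against 522 in protein-coding genes with both. In that background gene length and site number also differ, and clusters of other genes counted too.

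In PHGDH the pairs were 4, 3, 16 and 7 bases apart, in exons 2, 3, 11 and 12. The pair in exon 11 joins a site of height 45 with the cluster of 19 events. The sites of height 45 and 44 in exons 9 and 10 had no such neighbour, with the nearest cluster 2572 and 1168 bases away along the genome. In ATF4 each TRMT10A site lay downstream of a cluster, by 105 and 44 bases.

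**Figure D4:**
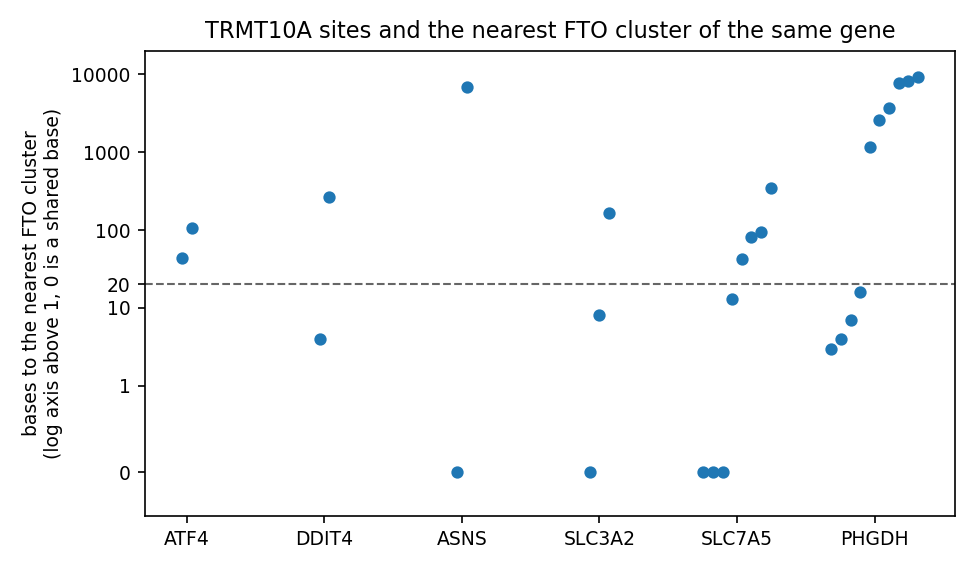
Each point is a TRMT10A site of 1 of the 6 genes with both proteins, and the y axis is its distance in bases to the nearest FTO cluster of the gene (0 is a shared base, log axis above 1). The dashed line is at 20 bases. SLC7A5 has 3 points at 0, PHGDH has 4 points between 3 and 16 and 6 points at 1168 or above, and both ATF4 points lie above the line.

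Last, the m6A peaks were set against the CLIP positions. Of the 4 peaks, those of DDIT4 and SLC3A2 held both TRMT10A sites and FTO clusters in their exon blocks. Over all listed peaks, 14.1% held a TRMT10A site and 17.6% an FTO cluster. In the DDIT4 peak were 2 sites and 2 clusters, all in the third block, and the first site lay 4 bases before the cluster at chr10:72274736-72274766. The third DDIT4 cluster (chr10:72275669-72275687) lay past the end of the peak. In the SLC3A2 peak were 2 sites and 3 clusters, and the site of height 31 shared a base with the cluster at chr11:62888524-62888552. The PPP1R15A peak had no site of either protein in its gene, and the nearest TRMT10A site to the TRIB3 peak lay 288 bases upstream of it. The 2 peaks without a site inside thus had opposite signs.

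**Figure D5:**
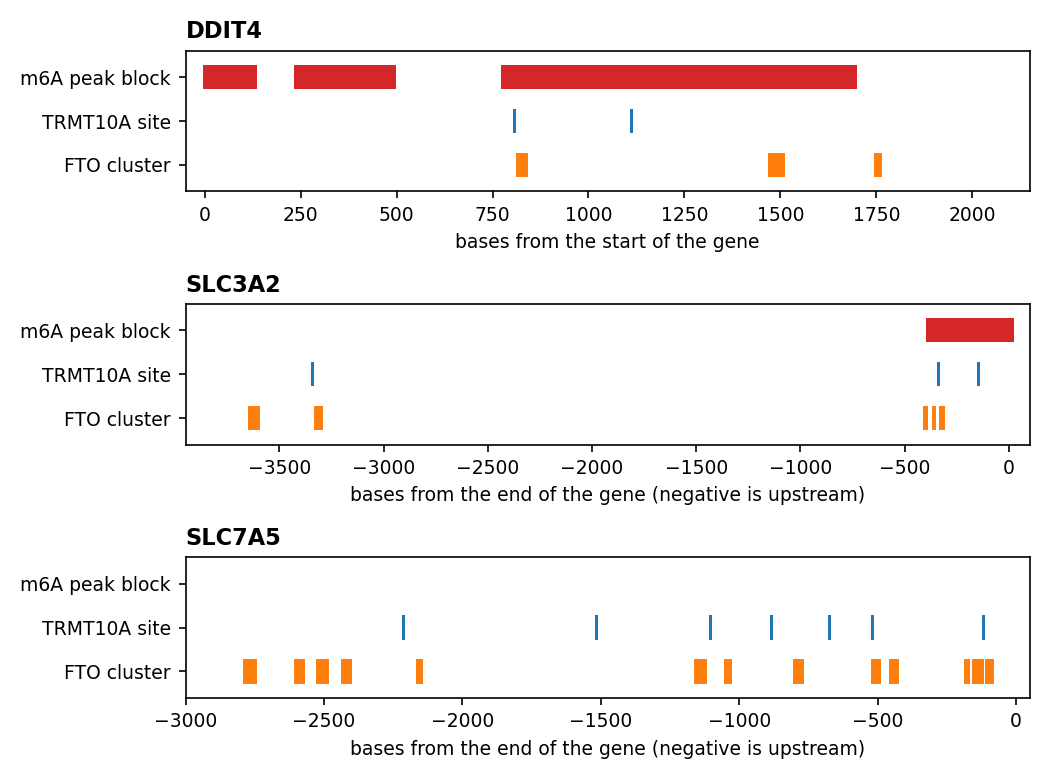
Exon blocks of the differential m6A peaks (red), TRMT10A sites (blue, drawn at a minimum width) and FTO clusters (orange) along DDIT4, the last part of SLC3A2 and the last part of SLC7A5, with distance in bases from the gene start or end on the x axis and transcription from left to right. In DDIT4 and SLC3A2 sites of both proteins lie under the m6A peak, and SLC7A5 has 7 sites and 13 clusters in its 3' UTR without a differential peak.

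Other genes of the pathway were counted in the same lists, and no set test was made. The backgrounds are those given above, for all protein-coding genes and for those with an entry in any table. Among 20 genes for the eIF2 kinases, eIF2, eIF2B and the eIF2 phosphatase, 9 had a TRMT10A site, 9 an FTO cluster and 8 both, against 12.6%, 15.5% and 6.96% of all protein-coding genes. Those with an entry in any table numbered 11, and the shares among all such genes were 49.6%, 61.1% and 27.4%. The eIF2 beta subunit EIF2S2 (0.27, adjusted p = 0.00912) was positive in the authors' deposited table. The phosphatase catalytic subunit PPP1CC (-0.44, adjusted p = 4.27e-05) and the eIF2B subunit EIF2B1 (-0.29, adjusted p = 0.017) were negative in the authors' deposited table. PPP1R15B, the constitutive counterpart of PPP1R15A, had 2 TRMT10A sites (highest 28) and 6 FTO clusters, whereas PPP1R15A had neither. GCN1, the activator of the kinase GCN2, had 5 sites and 4 clusters, PPP1CA 4 sites and 1 cluster, and EIF2S3 1 site and 5 clusters.

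Of 15 other stress transcription factors and ATF4 target genes, 4 had a positive peak and 0 a negative one, against 5.72% and 3.08% of all protein-coding genes. Of the 15, 7 had an entry in any table, and among all such genes the shares were 22.5% and 12.1%. The authors' deposited table gave 1.10 for the growth factor VEGFA (adjusted p = 0.000447), 0.33 for the transcription factor ATF3 (0.00575), 0.30 for the secreted glycoprotein STC2 (0.00224) and 0.27 for the translation repressor EIF4EBP1 (0.00316). In this group 3 genes had a TRMT10A site and 5 an FTO cluster, against 12.6% and 15.5% of all protein-coding genes. EIF4EBP1 had 1 site with a height of 36, SESN2, a leucine sensor upstream of mTORC1, had 3 with a highest of 34, and XPOT, the tRNA exporter, had 1 of 24. STC2 had 3 FTO clusters, and CEBPG, a partner of ATF4, had 1.

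Among 12 other amino acid transporters, 5 had a TRMT10A site and 5 an FTO cluster, 4 of them both, against 12.6%, 15.5% and 6.96% of all protein-coding genes. An entry in any table was found for 6 of the 12. The glutamine transporter SLC1A5 had 0.59 (adjusted p = 2.34e-10) in the authors' deposited table, while SLC38A2 (-0.60, adjusted p = 0.00282) and SLC7A6 (-0.49, adjusted p = 0.0407) were negative there. SLC7A6, another light chain of SLC3A2, had 1 site and no cluster. Like SLC7A5, the cationic amino acid transporter SLC7A1 had many FTO clusters, 17, with 5 TRMT10A sites (highest 29), and SLC38A1 had 12 clusters and 2 sites.

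Of 15 other enzymes of serine, glycine, one-carbon, proline and cysteine synthesis, 4 had a TRMT10A site and 8 an FTO cluster, against 12.6% and 15.5% of all protein-coding genes, and 8 had an entry in any table. SHMT2, the mitochondrial enzyme that turns serine into glycine, had 2 sites (highest 23) and 3 clusters, and MTHFD1 3 sites (highest 17) and 3 clusters. PYCR1 of proline synthesis had 5 sites (highest 21) and 2 clusters, while ALDH18A1, which acts earlier in that pathway, had 9 clusters and no site, and the alanine aminotransferase GPT2 3 clusters and no site. CBS, which joins serine to homocysteine, was the 1 gene with a differential peak. The authors' deposited table lists it at 2 places of chromosome 21, with 1.44 and 5.58. A near-identical copy, CBSL, lies on the same chromosome, so these values are uncertain.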

How the data were processed

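The submitters' processing notes name DESeq2 and the build hg38, without a role. The aligner and peak callers are not given in the sources used here. Per the file headers, the deposited m6A table holds for each differential peak a log2 fold change between conditions, a ratio (fold enrichment of pulldown over input) and log10 values of p and adjusted p, each computed by the authors. The deposited TRMT10A table gives every site a peak height, a score made by the authors, and a gene annotation. Per the file headers, the deposited FTO table is organised by transcript and states how many conversion events (a count) each cluster had. No table has values per library, so the planned count model was not used and no p was computed here. Other columns of sample values numbered 0.

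Genes were matched by symbol, older symbol or gene ID to RefSeq GRCh38.p14 (2006 of the m6A names matched). A TRMT10A site was assigned by the gene ID within the peak name if it lay inside the span of that gene. Strand was not compared in this step. Repeated lines were merged by position, leaving 5650 of 6571 TRMT10A lines and 9579 of 19163 FTO entries. In 2 FTO entries the list of clusters ends within a cluster, which was left out. Overlap needed 1 shared base on the same strand. Background shares are over 20052 protein-coding genes. The distance between intervals was tested on simulated intervals, and the Wilson interval was checked on a known case. The other steps were not tested on simulated data. The software was matplotlib 3.10.9, scipy 1.17.1, pandas 2.3.3 and numpy 2.4.6 under Python 3.11.15.

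The genes and the pathway lists were chosen with earlier results of these data known. All 10 genes are named. Of the pathway lists, genes with a differential peak are named, with the 3 of the highest TRMT10A site and the 3 of the most FTO clusters in each list. Alternatives changed thresholds, gene assignment, overlap rules and repeated lines.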

Additional observations from a re-analysis of the deposited data

How the results depend on the processing

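The alternatives gave 35 values, of which 21 stayed near the value reported and 14 moved. For counts and background shares, near means within a factor of 1.5. For shares of CLIP sites it means inside the 95% Wilson interval of the share reported. Genes with a positive m6A peak numbered 3 as listed, 0 with a minimum log2 fold change of 0.5 in either direction and 2 at an adjusted p of at most 0.01, and TRIB3 stayed negative under each. With genes of any table as background, 22.5% had a positive and 12.1% a negative peak, 49.6% a TRMT10A site, 61.1% an FTO cluster and 27.4% both. FTO clusters numbered 41, 10 with at least 5 conversion events, and 77 counted per transcript. Of them 5 shared a base with a TRMT10A site, 14 when a gap of up to 20 bases was allowed, 22 with up to 100, and 4 with FTO starts moved by 1 base, which loses SLC3A2. Without SLC7A5, TRMT10A sites were in exons for 85.0% and in 3' UTRs for 0.0%, and FTO clusters in coding sequence for 60.0% and in 3' UTRs for 36.0%. The share of TRMT10A sites within 20 bases of a cluster was 42.1% without SLC7A5 and 47.1% without PHGDH. The background of any table for the CLIP lists, the gap of 20 bases, FTO starts moved by 1 base, and leaving out SLC7A5 or PHGDH were added after seeing the data. No paired analysis was possible because the tables hold no values per library, and for the same reason no replicate could be left out. Unknown depth limits what the lack of an entry can show.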

Other observations

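The unfolded protein response of the endoplasmic reticulum, which activates ATF4 through the kinase PERK, had the largest share of genes with an FTO cluster among the 6 related lists counted. Of 15 genes, 11 had an FTO cluster and 8 a TRMT10A site, and those 8 had both, against 15.5%, 12.6% and 6.96% of all protein-coding genes. The genes with an entry in any table numbered 11, and among all protein-coding genes with one 61.1% had an FTO cluster and 49.6% a TRMT10A site. CANX, a membrane chaperone for glycoproteins, had 29 clusters, the strongest of 82 conversion events, and 4 TRMT10A sites. HSPA5, the chaperone BiP, had 28 clusters and 3 sites, CALR, a soluble relative of CANX, had 20 and 4, and HSP90B1 had 16 and 3. PDIA4, a protein disulfide isomerase, had 5 clusters and 1 site, and SDF2L1 2 clusters and 1 site with a height of 23. A positive peak was listed for 4 of these genes, against 5.72% of all protein-coding genes and 22.5% of those with an entry, and the authors' deposited table gave log2 fold changes of 0.43 for HSP90B1 (adjusted p = 2e-12), 0.27 for CALR (7.94e-36) and 0.22 for HSPA5 (3.16e-07). PDIA4 had a peak of each sign in the authors' deposited table, at 0.41 (adjusted p = 0.0141) and -0.19 (0.00151). These are abundant transcripts in many cell types, and whether their counts follow abundance was not tested.

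Of 12 genes of mTORC1 and its regulators, the complex that DDIT4 restrains, 3 had a TRMT10A site, 4 an FTO cluster and 2 both, against 12.6%, 15.5% and 6.96% of all protein-coding genes, and 6 had an entry in any table. TSC2, through which DDIT4 acts, had 5 TRMT10A sites (highest 24) and 2 FTO clusters. RPTOR had 1 of each, MTOR 1 cluster, and AKT1S1 2 sites. MLST8, a subunit of mTORC1, was the 1 gene of this list with a differential m6A peak, at 0.57 (adjusted p = 1.38e-05) in the authors' deposited table, and it had no site of either protein.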
